A study of Mus musculus with 8 samples.

Results

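The genes described here encode integrin chains, integrin ligands, a selectin ligand and other adhesion molecules, with a few genes that activate integrins or steer T cell trafficking. They were chosen by symbol from a list of 35 genes, and all 35 were found among the 22829 genes of the deposited table. Normalized counts averaged 10 or more over the 8 samples for each of them, a floor that 16982 genes reached. RNA seq compared Th17 cells expressing WT-ROR-γt with Th17 cells expressing K187R-ROR-γt, in which the lysine that receives SUMO is replaced by arginine, with 4 samples in each group. All the cells carried the ROR-γt-/- genotype and received their form of ROR-γt from a lentivirus after CD4+ T cells had been bead-purified from mouse splenocytes. Both groups were cultured under Th17-polarizing conditions. The comparison asks what loss of the SUMO site on ROR-γt does to the transcripts of these cells. The age of the mice, and whether transduced cells were selected from the culture, are not given in the sources used here. Neither is whether equally numbered samples came from 1 animal or culture, so the p-values measure only the spread between these samples, which may be technical.

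Integrins are heterodimers of an alpha and a beta chain that hold cells to matrix or to other cells. Most leukocyte integrins rest in a bent state with low affinity and are opened from inside the cell, when the GTPase Rap1 recruits talin and kindlin to the tail of the beta chain. The alpha chain largely sets what is bound. LFA-1, made of Itgal and Itgb2, binds ICAMs and holds T cells on vessel walls and on antigen-presenting cells. The chain encoded by Itga4 binds VCAM-1 when paired with Itgb1 and the gut vessel addressin MAdCAM-1 when paired with Itgb7, and the chain encoded by Itgae pairs with Itgb7 and binds E-cadherin on epithelium. Selectins and their glycosylated ligands start the rolling of T cells on vessel walls. The receptor for sphingosine 1-phosphate encoded by S1pr1 draws T cells out of lymphoid tissue, and the transcription factor Klf2 is known to drive its gene.

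Itgb7, which encodes the beta chain that pairs with Itga4 and with Itgae, was among the 3 adhesion genes with the smallest p-values. It lies on the minus strand of chromosome 15 from 102215995 to 102231944 in GRCm38, and its upstream bases are shown because they hold several copies of the KLF motif that was searched for in promoters along with the ROR response element. The stretch, from RefSeq in the build GRCm38.p6, is written in the direction of transcription and ends at the base before the annotated start of the gene. Capitals mark the KLF core CACCC or its reverse complement GGGTG.

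Itgb7, chr15:102231945-102232185, minus strand: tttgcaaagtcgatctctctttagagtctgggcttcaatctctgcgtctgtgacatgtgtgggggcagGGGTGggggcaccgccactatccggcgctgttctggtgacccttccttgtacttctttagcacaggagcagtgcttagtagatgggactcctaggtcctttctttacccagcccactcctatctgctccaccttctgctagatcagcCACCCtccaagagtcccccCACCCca

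This stretch of 241 bases held the KLF core 3 times and the core of the ROR response element, AGGTCA or TGACCT, 0 times. Windows of 250 upstream bases were at hand for 22 of the 35 genes, as 24 windows. The KLF core stood in 18 of the 24 windows and in 52.0% of 32851 windows of the same length over the genome. The ROR core stood in 1 of the 24, that of Apbb1ip, and in 14.0% of all windows. A match describes letters in a window and is not evidence of binding.

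Reads counted on genes ranged from 52456804 to 74676721 per sample, and 3 reads, taken as the smallest detectable count, corresponded to 2.54 to 3.56 normalized counts, a floor for counting error only. T cell markers were high in every sample, with a summed level of 185202 to 223400 over 9 genes. Clustering over the 16947 other tested genes put the samples in 3 sets, each of which mixed the 2 groups. WT replicates 1 and 3 fell in set 1 with K187R replicate 1. WT replicate 2 fell in set 2 with K187R replicates 2 and 3, and the replicates numbered 4 made up set 3. The labels give no batch to which the sets could be tied.

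No adhesion gene passed an adjusted p of 0.05 between the groups, and most had a somewhat higher mean in cells expressing K187R-ROR-γt. The integrin chains Itgae, Itgb7 and Itgal had the smallest p-values, with geometric means 1.45-fold, 1.30-fold and 1.28-fold higher in cells expressing the mutant. The log2 fold change, the K187R mean minus the WT mean of log2(normalized count + 1), was above 0 for 29 of the 35 genes (82.9%), against 48.4% of the 16982 genes tested. Its median was 0.18 over the 35 genes and -0.01 over all genes tested. Without the samples of set 2, an alternative chosen after seeing the data, 27 of the 35 lay above 0 against 49.0% of all genes, and the median over the 35 was 0.11. Without WT replicate 4 it was 26 of the 35. In limma with Benjamini-Hochberg adjustment over all genes tested, 0 of the 35 passed, as did 0.0% of all genes, and their adjusted p-values lay between 0.921 and 0.999. An unadjusted p under 0.05 with a higher K187R mean was reached by 3 of the 35 (8.57%) against 2.75% of all genes. With a lower K187R mean it was reached by 0 of the 35 against 1.64%. On the recovered reads, edgeR gave 3 adhesion genes with an unadjusted p under 0.05 and called 0 after adjustment. DESeq2 gave 5 and called 0 of 34 with an adjusted p, against 0.227% of all genes.

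The groups overlapped for all 35 genes, while 1.47% of all genes had every K187R sample above every WT sample and 0.989% had every one below. Within the 3 sets, 9 of the 35 (25.7%) had every K187R sample above every WT sample of its set, against 8.94% of all genes. These 9 were Itgae, Itgb7, Itgal, Itga4, Itgax, Icam1, Vcam1, S1pr1 and Apbb1ip. Itgav was the 1 gene (2.86%) that lay below in every set, against 4.93% of all genes. With the set as a factor, an alternative chosen after seeing the data, DESeq2 called 4 of 34 adhesion genes and 1.11% of all genes tested. The 4 were Itgae (log2 fold change 0.58, adjusted p = 0.00567), Vcam1 (0.58, 0.00845), Itgax (0.41, 0.0202) and Itgal (0.31, 0.0469), and limma and edgeR with the same factor called none of them.

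**Figure D1:**
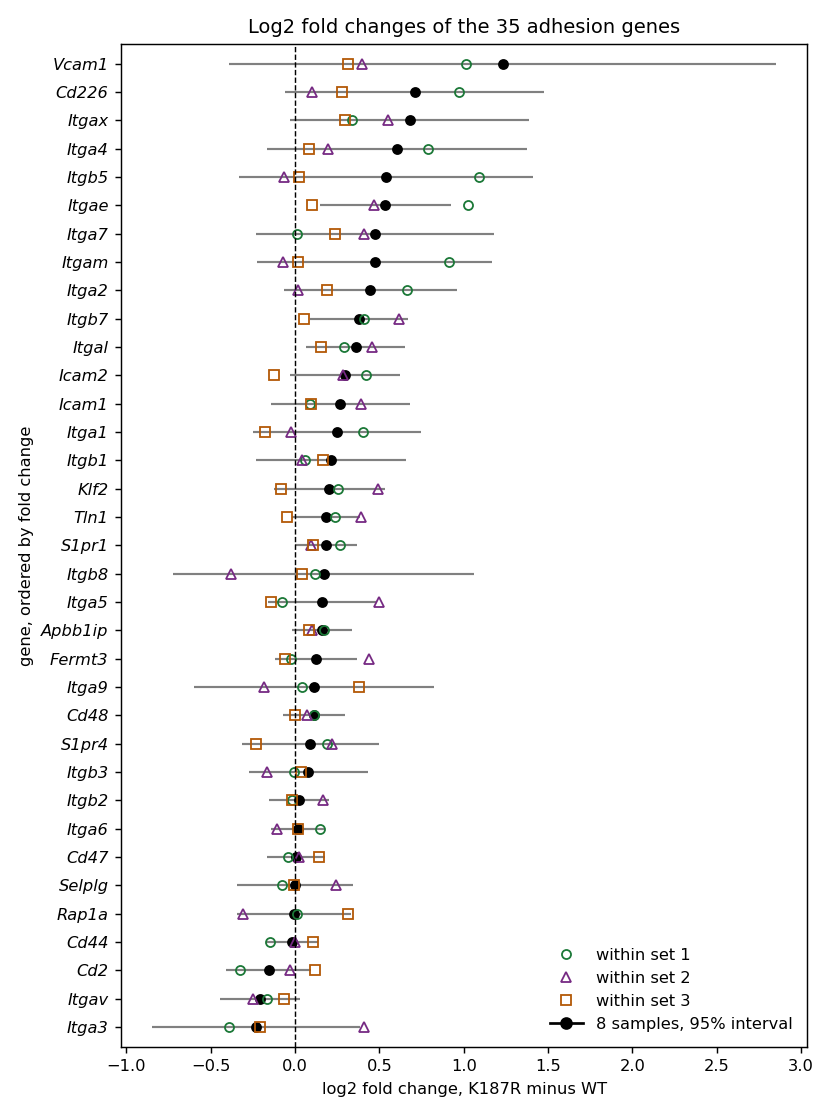
Log2 fold change (K187R minus WT, horizontal axis) of the 35 adhesion genes, ordered by size. Black points with grey lines are the limma estimate over 8 samples and its 95% interval, and open symbols are the differences within each set. The intervals of Itgae, Itgb7 and Itgal lie above 0, and 29 of the 35 estimates do.

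Itgae (ENSMUSG00000005947, chromosome 11 of GRCm38, 73090583 to 73147446, plus strand) encodes the alpha chain that marks T cells held in epithelium. Its normalized count in cells expressing WT-ROR-γt was 3395, 3588, 3426 and 5519 in replicates 1, 2, 3 and 4, and in cells expressing K187R-ROR-γt it was 6931, 4829, 5120 and 5927. All the K187R samples lay above WT replicates 1, 2 and 3, and WT replicate 4 lay above K187R replicates 2 and 3, so the groups overlapped by 1 WT sample. The means were 3982 ± 1028 (SD, n = 4) and 5702 ± 942 (SD, n = 4). The log2 fold change was 0.54 with a 95% interval of 0.15 to 0.92, an unadjusted limma p of 0.0121 and an adjusted p of 0.921. The exact two-sided permutation test of the 8 samples gave p = 0.0857, where the smallest it can give is 0.0286. Within sets 1, 2 and 3 the log2 difference was 1.02, 0.47 and 0.10, and the exact permutation test within sets gave p = 0.0556, the smallest it can give.

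Itgb7 (ENSMUSG00000001281), the beta chain that pairs with both Itgae and Itga4, had 11741, 10990, 13305 and 16787 normalized counts in WT replicates 1 to 4. In K187R replicates 1 to 4 it had 16595, 15251, 18574 and 17430. As for Itgae, WT replicate 4 stood with the K187R samples and the other WT samples lay below all of them. The means were 13210 ± 2575 and 16960 ± 1400 (SD, n = 4 each). This gave a log2 fold change of 0.38, with a 95% interval of 0.09 to 0.67, an unadjusted limma p of 0.0163 and an adjusted p of 0.921. Within sets 1, 2 and 3 it was 0.41, 0.61 and 0.05. For Itgb7 the exact two-sided permutation test of the 8 samples gave p = 0.0857.

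Itgal (ENSMUSG00000030830, chromosome 7, 127296260 to 127335138, plus strand) encodes the alpha chain of LFA-1. It had 20936, 22843, 22415 and 19104 normalized counts in the WT replicates and 26538, 29587, 33111 and 21273 in the K187R replicates, in numerical order. K187R replicates 1, 2 and 3 lay above all WT samples, and K187R replicate 4 lay between them. The means were 21320 ± 1691 and 27630 ± 5016 (SD, n = 4 each). On the log2 scale the difference was 0.36, with a 95% interval of 0.07 to 0.65, an unadjusted limma p of 0.0214 and an adjusted p of 0.921. For Itgal the exact two-sided permutation test of the 8 samples gave p = 0.0857. Its partner Itgb2, the beta chain of all leukocyte-restricted integrins of the LFA-1 family, had 39778, 35566, 42205 and 43418 normalized counts in the WT replicates and 40492, 38579, 41342 and 42886 in the K187R replicates. These groups lay over each other, with a log2 fold change of 0.02 and a 95% interval of -0.16 to 0.20. Whether the difference of Itgal exceeds that of Itgb2 was not tested.

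**Figure D2:**
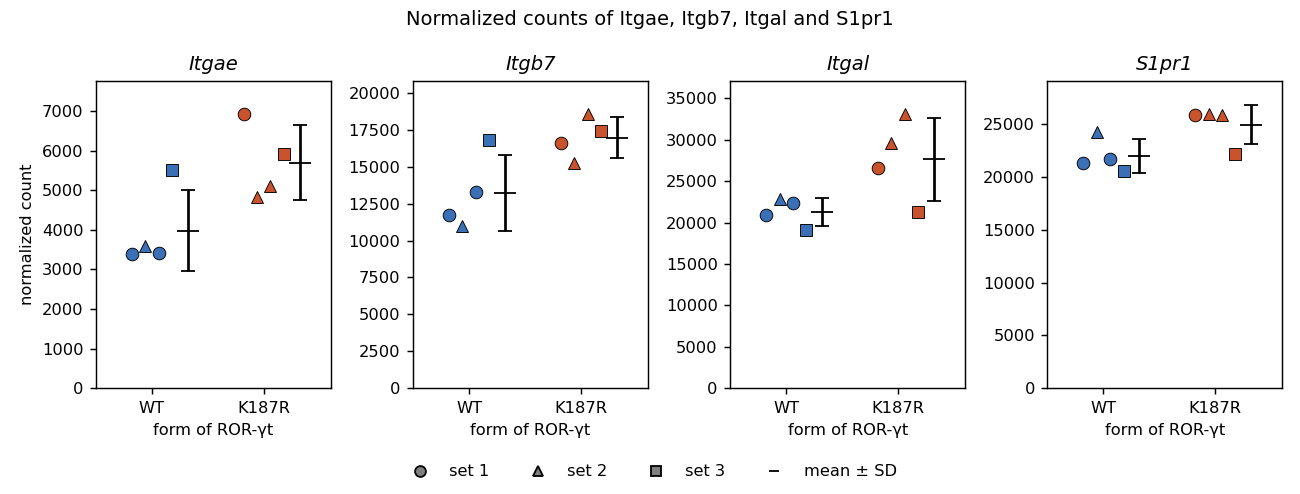
Normalized count (vertical axis, from 0) of Itgae, Itgb7, Itgal and S1pr1 in each of the 4 WT and 4 K187R samples. Circles, triangles and squares mark sets 1, 2 and 3, and the black bars are the mean ± SD of each group. For Itgae and Itgb7 the WT sample of set 3 stands among the K187R samples, and for Itgal and S1pr1 the K187R sample of set 3 stands among the WT samples.

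Itga4, the alpha chain of the receptors for VCAM-1 and MAdCAM-1, ranged from 5645 to 13084 normalized counts in the WT samples and from 6185 to 16688 in the K187R samples. WT replicate 2 was the WT sample at the top of that range, and the other 3 were at 6177 or less. On the log2 scale the groups differed by 0.60, with a 95% interval of -0.17 to 1.37, an unadjusted limma p of 0.110 and an adjusted p of 0.921. Within sets 1, 2 and 3 the difference was 0.79, 0.20 and 0.08. Of its exonic bases, 8.0% are shared with Cerkl on the opposite strand, and whether the counting used the strand is not given in the sources used here.

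Itgax, the alpha chain known as CD11c and best known from dendritic cells, had 608, 1208, 623 and 793 normalized counts in WT replicates 1 to 4 and 779, 1629, 1930 and 975 in K187R replicates 1 to 4. The samples of set 2 were the highest of both groups, so the groups overlapped. Between groups the log2 fold change was 0.68, with a 95% interval of -0.03 to 1.38, an unadjusted limma p of 0.0578 and an adjusted p of 0.921. Itgam, the alpha chain of the myeloid integrin Mac-1, ranged from 420 to 1135 normalized counts in the WT samples and from 826 to 1149 in the K187R samples. Its log2 fold change was 0.47 over all samples, and 0.91, -0.07 and 0.02 within sets 1, 2 and 3. In the annotation 68.7% of its exonic bases are shared with Gm49368 on the same strand, so its counts are uncertain.

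The other beta chains were Itgb1, Itgb3, Itgb5 and Itgb8. Itgb5, which pairs with the RGD-binding alpha chain Itgav, had 265, 637, 298 and 952 normalized counts in the WT replicates and 599, 595, 620 and 968 in the K187R replicates. WT replicates 1 and 3 were low, WT replicate 2 lay with K187R replicates 1, 2 and 3, and WT replicate 4 lay beside K187R replicate 4. A log2 fold change of 0.54 had a 95% interval of -0.33 to 1.41, and within sets it was 1.09, -0.07 and 0.02. Itgb1, the common partner of the matrix-binding alpha chains, differed by 0.21 on the log2 scale, Itgb3 by 0.08 and Itgb8 by 0.17, with unadjusted limma p-values of 0.312, 0.627 and 0.677. Itgb8, whose pairing with Itgav is known for releasing active TGF-β, had its highest values in WT replicate 2 (1383) and K187R replicate 2 (1278).

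Itgav and Itga3 were the alpha chains with lower K187R means. Itgav, which binds RGD motifs with several beta chains, had 7424 to 9682 normalized counts in the WT samples and 6112 to 7803 in the K187R samples. Its log2 fold change was -0.21, with a 95% interval of -0.45 to 0.03 and an unadjusted limma p of 0.0818. Within sets 1, 2 and 3 it was -0.16, -0.25 and -0.07. The fibronectin receptor chain Itga5 differed by 0.16 and the VCAM-1 and tenascin-binding chain Itga9 by 0.11, the latter at only 14.8 to 36.5 normalized counts. Of the 5 alpha chains of collagen and laminin receptors, Itga1, Itga2, Itga6 and Itga7 had log2 fold changes between 0.02 and 0.47 and Itga3 had -0.23. The laminin-binding chain Itga6 was the steadiest of them, between 15923 and 18257 normalized counts in all 8 samples. None of these 8 alpha chains had an unadjusted limma p under 0.05. Of 8 further integrin chains, 4 passed the floor, including the platelet chain Itga2b at 294 to 1377 normalized counts. These 4 all had a higher K187R mean, against 48.4% of all genes, with a median log2 fold change of 0.53. Among them 0 had an unadjusted limma p under 0.05.

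The immunoglobulin-family ligands of integrins were Icam1, Icam2 and Vcam1, and all 3 had higher K187R means. Vcam1, the ligand of the Itga4 and Itgb1 pair, had 177, 1166, 156 and 310 normalized counts in WT replicates 1 to 4 and 337, 1584, 1491 and 386 in K187R replicates 1 to 4. The 3 samples of set 2 were at 1166 or more and the other 5 at 386 or less, and WT replicate 2 was the 1 WT sample that overlapped the K187R samples. The largest log2 fold change of the 35, 1.23, had a 95% interval of -0.39 to 2.85, an unadjusted limma p of 0.121 and an adjusted p of 0.921. It lay between 0.87 and 1.86 with single samples left out, at the latter without WT replicate 2, and within sets 1, 2 and 3 it was 1.01, 0.40 and 0.31. Icam1 and Icam2, both ligands of LFA-1, differed by 0.27 and 0.30 on the log2 scale, with unadjusted limma p-values of 0.174 and 0.0693. Of Icam1's exonic bases, 11.7% are shared with Gm47079 on the opposite strand.

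Selplg, which encodes the selectin ligand PSGL-1, had 19977, 16925, 24927 and 25766 normalized counts in the WT replicates and 21123, 17808, 22489 and 25639 in the K187R replicates. The lowest sample of each group was its replicate 2 and the highest its replicate 4. Between groups the log2 fold change was -0.00 with a 95% interval of -0.34 to 0.34. Cd44, the hyaluronan receptor of activated T cells, lay between 12784 and 14747 normalized counts in all 8 samples, with a log2 fold change of -0.02 (95% interval -0.17 to 0.13). Of 13 tested genes for selectins and the glycosylation of their ligands, 10 had a higher K187R mean, against 48.4% of all genes. None of these 13 had an unadjusted limma p under 0.05.

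Cd2, a T cell receptor for CD48, had 16218, 12893, 16790 and 11934 normalized counts in the WT replicates and 13172, 12513, 12713 and 12953 in the K187R replicates. WT replicates 1 and 3 lay above all other samples, and the K187R samples lay between WT replicates 4 and 1. This gave a log2 fold change of -0.16 with a 95% interval of -0.41 to 0.09. Its ligand Cd48 differed by 0.11 in the other direction (95% interval -0.07 to 0.29). Cd47, which gives the signal that restrains phagocytes, had 26058, 23687, 24993 and 21264 normalized counts in the WT replicates and 24741, 24815, 23302 and 23431 in the K187R replicates. The K187R samples all lay inside the WT range, with a log2 fold change of 0.01 and a 95% interval of -0.16 to 0.18.

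Cd226, which encodes the activating receptor DNAM-1, had 308, 769, 280 and 346 normalized counts in WT replicates 1 to 4. In K187R replicates 1 to 4 it had 576, 935, 726 and 421. WT replicate 2 lay above K187R replicates 1, 3 and 4, and the other WT samples lay below all K187R samples. On the log2 scale the difference was 0.71, with a 95% interval of -0.06 to 1.48, an unadjusted limma p of 0.0661 and an adjusted p of 0.921. Of 23 other adhesion receptors tested, 16 had a higher K187R mean, against 48.4% of all genes. An unadjusted limma p under 0.05 was reached by 4 with a higher mean (Cd96, Pecam1, Nectin2 and Crtam, against 2.75% of all genes) and by 1 with a lower mean (Pvr, against 1.64%). Pvr and Nectin2 encode ligands of DNAM-1, and CD96 is a further receptor for Pvr. Cd96 was at 3180 to 3757 normalized counts in the WT samples and 4251 to 4803 in the K187R samples, with no overlap (log2 fold change 0.32, unadjusted p = 0.00214, adjusted p = 0.921 in limma). Pvr was at 2553 to 2897 in the WT samples and 2241 to 2501 in the K187R samples, again with no overlap (log2 fold change -0.21, unadjusted p = 0.0193, adjusted p = 0.921 in limma).

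S1pr1 (ENSMUSG00000045092, the S1P receptor for egress) had 21298, 24274, 21654 and 20586 normalized counts in the WT replicates and 25838, 25946, 25813 and 22122 in the K187R replicates. K187R replicates 1, 2 and 3 lay above all WT samples and K187R replicate 4 lay below WT replicate 2. The means were 21950 ± 1610 and 24930 ± 1873 (SD, n = 4 each). This gave a log2 fold change of 0.18, with a 95% interval of -0.00 to 0.37, an unadjusted limma p of 0.0501 and an adjusted p of 0.921. The exact two-sided permutation test of the 8 samples gave p = 0.0571. Klf2 had 8438, 7180, 9876 and 11759 normalized counts in the WT replicates and 10889, 8990, 11335 and 11091 in the K187R replicates. WT replicate 4 was the highest of all samples and WT replicate 2 the lowest, and the log2 fold change of 0.20 had a 95% interval of -0.13 to 0.53 and an unadjusted limma p of 0.200.

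S1pr4, a further S1P receptor of lymphocytes, ranged from 3536 to 6214 normalized counts in the WT samples and from 3756 to 5389 in the K187R samples, with a log2 fold change of 0.09. Of 15 further genes of Klf2, Foxo1 and S1P trafficking that were tested, 8 had a higher and 7 a lower K187R mean. Over all genes, 48.4% had a higher mean. An unadjusted limma p under 0.05 with a higher mean was reached by 1 of the 15, against 2.75% of all genes. That gene was Klf3, a repressor of the same family as Klf2, at 5025 to 5810 normalized counts in the WT samples and 5818 to 6838 in the K187R samples. Foxo1, which is upstream of Klf2, differed by 0.01 on the log2 scale and the lymph node homing receptor Ccr7 by -0.05.

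The machinery that opens integrins from inside the cell was represented by Tln1 (talin-1), Fermt3 (kindlin-3), Rap1a and Apbb1ip (the Rap1 adaptor RIAM). Tln1 was at 28998 to 36783 normalized counts in the WT samples and 35596 to 40023 in the K187R samples, with a log2 fold change of 0.19 and a 95% interval of -0.02 to 0.39. Apbb1ip was at 8243 to 9549 and 8733 to 10339, with a log2 fold change of 0.16 and a 95% interval of -0.02 to 0.34. Fermt3 differed by 0.12 and Rap1a by -0.01 on the log2 scale. The unadjusted limma p-values were 0.0684 for Tln1, 0.0722 for Apbb1ip, 0.286 for Fermt3 and 0.971 for Rap1a, and the adjusted ones 0.921 or more.

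Of 32 other genes of integrin activation and adhesion complexes that were tested, 21 had a higher and 11 a lower K187R mean. Their median log2 fold change was 0.03, and 48.4% of all genes had a higher mean. An unadjusted limma p under 0.05 was reached by 7 with a higher K187R mean, against 2.75% of all genes, and by 0 with a lower one, against 1.64%, and 0 passed adjustment. They were Rasgrp1 and Rasgrp2, exchange factors for Ras and Rap1, the Rap1 effector Rassf5, the adaptor Skap1, the actin crosslinker Flna, and the Rac and Cdc42 exchange factors Dock2 and Dock8. Rasgrp1, Rassf5, Skap1, Flna and Dock2, together with Cyth1, which binds the tail of the Itgb2 chain, were the 6 whose K187R samples all lay above the WT samples, as they did for 1.47% of all genes. Flna was at 57510 to 76510 normalized counts in the WT samples and 77790 to 93340 in the K187R samples (log2 fold change 0.35, unadjusted p = 0.0072, adjusted p = 0.921 in limma). Skap1 was at 6345 to 7035 and 7502 to 7849 (log2 fold change 0.20, unadjusted p = 0.00978, adjusted p = 0.921 in limma).

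**Figure D3:**
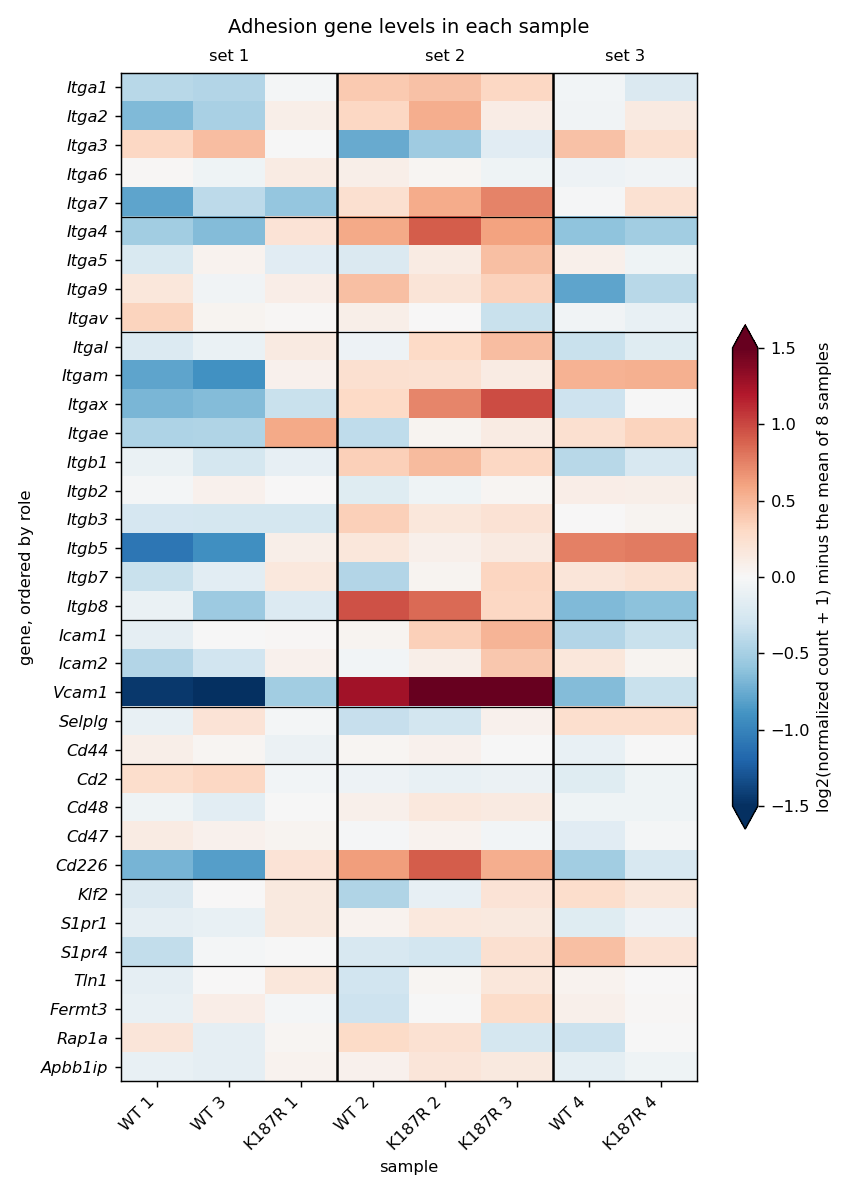
Heat map of the 35 adhesion genes (rows, ordered by role) in the 8 samples (columns, ordered by set and group). Colour is log2(normalized count + 1) minus the gene's mean over the 8 samples, with values past 1.5 drawn in the end colours. The columns of set 2 are red for Itga4, Itgb8, Vcam1 and Cd226 in both groups.

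The samples of a set lay close together for several genes. Vcam1 ranged over 3.33 log2 units among the 8 samples, Itgb5 over 1.87, Cd226 over 1.74 and Itgax over 1.66, the widest ranges among the 35. At the other end Itga6 ranged over 0.20 and Cd44 over 0.21. In set 2 the samples of both groups lay above all samples of the other sets for 13 of the 35 genes, namely Vcam1, Itga4, Itgb1, Itgax, Cd226, Itga1, Itga7, Itga9, Itgb3, Itgb8, Icam1, Cd48 and Apbb1ip. For Itga3 they lay below all of them, at 844 to 1269 against 1419 to 1962 normalized counts. The share of all genes that set 2 in this way was not counted, and the sets came from clustering these same samples. The 13 of 35 can therefore not be read as particular to adhesion genes. Itgam and Itgb5 were highest in set 3 and lowest in the WT samples of set 1.

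Markers of myeloid cells varied in the same samples. The summed level of 10 macrophage and monocyte markers was 20805 to 61523 normalized counts in the WT samples and 35413 to 64640 in the K187R samples, all 10 had a higher K187R mean, and no marker was at 0 in any sample. In limma 0 of the 10 had an unadjusted p under 0.05. The sum was lowest in WT replicates 1 and 3 (20805 and 21230), the samples in which Itgam, Itgb5, Itgax and Vcam1 were lowest. At the other end the sum was highest in set 3 (61523 and 64640), as were Itgam and Itgb5. Vcam1 and Itgax were instead highest in set 2, where the sum was 44176 to 50291. Most of the sum was Lyz2, at 17030 in WT replicate 1 and 54520 in WT replicate 4. Single markers did not all follow the sum. Csf1r was also lowest in WT replicates 1 and 3 (1986 and 1974), but Cd14 was lowest in K187R replicates 1 and 4 (376 and 407). Every tested marker of 6 other lists also had a higher K187R mean, with a median log2 fold change of 1.08 over 6 neutrophil, 0.92 over 5 platelet and megakaryocyte, 0.88 over 4 mast cell and basophil, 0.69 over 3 dendritic cell, 0.38 over 5 B cell and 0.35 over 3 stromal and endothelial markers, and 0.46 over the 10 macrophage and monocyte markers. In limma 0 of these had an unadjusted p under 0.05, and their part in the 29 of 35 adhesion genes with a higher K187R mean was not tested. Not all marker lists went this way. Both CD8 T cell markers had a lower K187R mean, with a median log2 fold change of -0.16. Of 3 tested NK cell markers, 2 had a higher mean and 1, Klrd1, a lower one (log2 fold change -0.28). Of 9 T cell markers, 8 had a higher mean and 1 a lower one, with a median of 0.10. Klrd1 and the T cell marker Cd5, which was higher, passed the same unadjusted threshold in limma. The sum of 6 neutrophil markers was 3121 to 45983 in the WT samples and 10163 to 33159 in the K187R samples. The sum of 6 dendritic cell markers was 211 to 615 and 260 to 793, with Siglech at 0 in some samples. The sum of 5 platelet and megakaryocyte markers was 499 to 2472 and 831 to 2489. The part of such cells in the values of Itgam, Itgax, Itgb5 and Vcam1 was not tested. In bulk samples more cells of a type and more RNA per cell cannot be told apart.

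**Figure D4:**
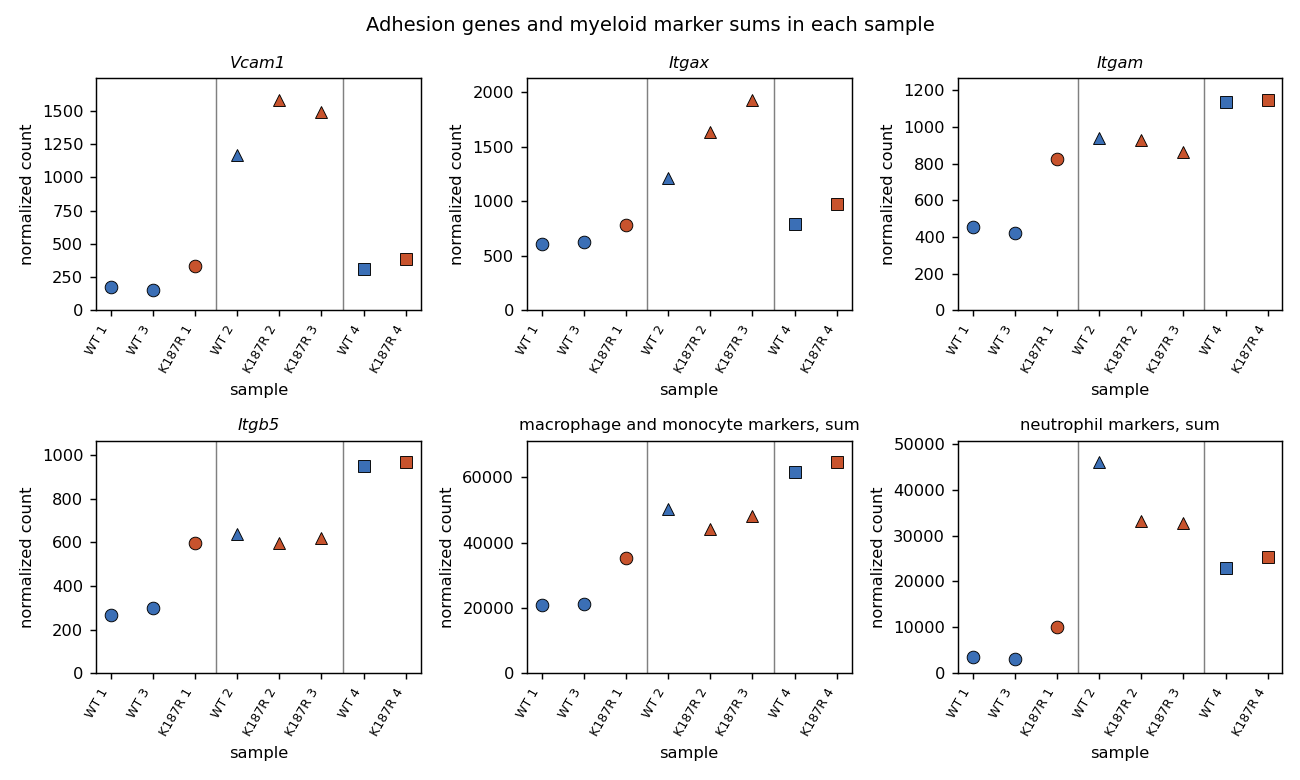
Normalized count (vertical axes, from 0) of Vcam1, Itgax, Itgam and Itgb5 and summed normalized count of macrophage and monocyte markers and of neutrophil markers in each sample. Blue symbols are WT and orange symbols K187R, and grey lines separate sets 1, 2 and 3. WT replicates 1 and 3 are the lowest samples in all 6 panels. Vcam1 and Itgax are highest in set 2, and Itgam, Itgb5 and the macrophage and monocyte sum in set 3.

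Of the other lists, the sum of 5 B cell markers was 301 to 1220 normalized counts in the WT samples and 357 to 1596 in the K187R samples, and that of 4 NK cell markers was 776 to 1287 and 647 to 1140. The sum of 4 mast cell and basophil markers was 534 to 3115 and 682 to 3557, that of 6 stromal and endothelial markers 53.8 to 117 and 53.3 to 221, and that of 2 CD8 T cell markers 403 to 1025 and 387 to 1141. The 3 erythroid markers listed summed to 1.69 to 76.5 over all samples. WT replicate 4 was the highest WT sample for Itgae (5519) and Itgb7 (16787). It was also the highest WT sample for the macrophage and monocyte (61523), T cell (212343), CD8 T cell (1025) and erythroid (56.6) sums. Its Th17 (74758), B cell (301), dendritic cell (211) and NK cell (776) sums were the lowest of the WT samples. WT replicates 1 and 3, with the lowest macrophage and monocyte sums, lay below all K187R samples for Itgae and Itgb7. WT replicate 2, with a macrophage and monocyte sum of 50291, was among the 3 low WT samples for Itgae and the lowest sample for Itgb7. The part of any of these cell types in the values of Itgae and Itgb7 was not tested. Among 8 Th17 markers, 7 had a higher K187R mean, against 48.4% of all genes. An unadjusted limma p under 0.05 with a higher mean was reached by 5 (Il17a, Il17f, Ccr6, Il23r and Il1r1), against 2.75% of all genes. After adjustment 0 of the 8 passed. The study reported Il17a, Il17f and Il23r as higher with the mutant by RNA seq and real-time PCR. It also reported more secreted IL-17A by ELISA.

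**Figure D5:**
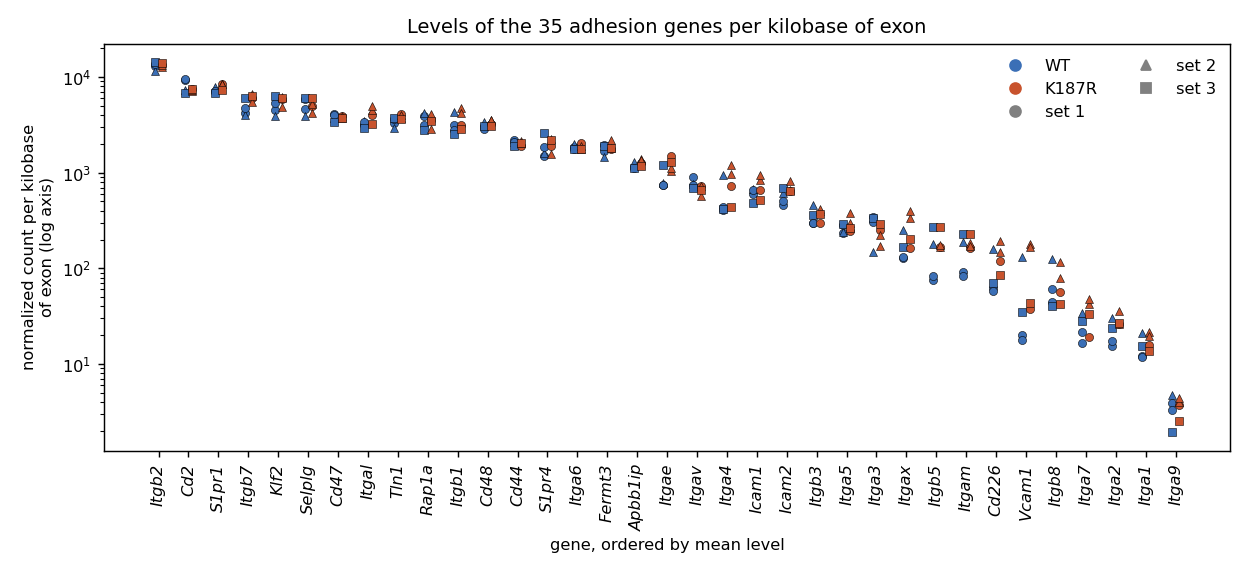
Normalized count per kilobase of exon (vertical log axis) of the 35 adhesion genes, ordered by mean level over 8 samples. Blue symbols are WT and orange symbols K187R, and circles, triangles and squares are sets 1, 2 and 3. Itgb2 is the highest and Itga9 the lowest.

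Levels of different genes were compared per kilobase of exon, as mean ± SD over the 8 samples. Among the beta chains Itgb2 stood highest at 13280 ± 843 normalized counts per kilobase, followed by Itgb7 at 5445 ± 1003 and Itgb1 at 3474 ± 819. Itgb3, Itgb5 and Itgb8 were at 362.5, 174 and 70.4. The range of Itgb2 lay above that of Itgb7, and the ranges of Itgb7 and Itgb1 overlapped.

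Among the alpha chains Itgal was highest at 3726 ± 736, followed by Itga6 at 1859 ± 101, Itgae at 1057 ± 283, Itgav at 720 ± 94.1 and Itga4 at 691 ± 310. The ranges of Itgal and Itga6 did not overlap, nor did those of Itga6 and Itgae, while those of Itgae, Itgav and Itga4 did. Itga1, Itga2, Itga7 and Itga9 were between 3.55 and 30.3. Of the other molecules Cd2 (7839 ± 1038), S1pr1 (7696 ± 745), Klf2 (5384 ± 875), Selplg (5110 ± 812) and Cd47 (3830 ± 232) were among the 8 highest.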

How the data were processed

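RNA seq was run on 4 WT-ROR-γt and 4 K187R-ROR-γt samples, grouped by their labels. According to the study's methods, reads were trimmed with Cutadapt, aligned to GRCm38 with HiSat2 and counted per GENCODE M15 gene with featureCounts, and the submitters' processing notes add bcl2fastq and DESeq2. Per gene, the authors deposited a normalized signal for 22829 genes, the read count over the sample's size factor (0.842 to 1.18). All values (100%) were whole reads within 0.01 of a read once divided by the worth of 1 read, so reads were recovered, 52456804 to 74676721 per sample, and higher counts carry less counting error. Methods name a KAPA poly-A kit and the labels another kit.

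Groups were compared with limma (lmFit, eBayes with trend) on log2(normalized count + 1). The 16982 genes averaging 10 or more entered, with Benjamini-Hochberg adjustment and a threshold of 0.05. Fold changes on this scale understate those of low genes. Single genes were also given an exact two-sided permutation test, over 70 regroupings of the 8 samples and over 18 regroupings within the 3 sets, which came from average-linkage clustering without the adhesion genes. The members, the gene lists and the sets were chosen with earlier results of these data known. By rule, values in every sample are given for genes with an unadjusted p under 0.05, no overlap of groups or a call under a setting listed below except those added later, the 8 highest per kilobase of exon, the 4 with the widest range, and Klf2, S1pr1, Itgae and Itgb7. Itga4, Itgam and other genes are given by range.

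The settings varied were the pseudocount (0.5 and 5), the filter (none, and 50 in place of 10), quantile normalization, TMM factors, edgeR and DESeq2 on the recovered reads, a replicate block, the sample set as a factor, and each sample left out. The set in edgeR and DESeq2, the block in DESeq2, and leaving out set 2 or set 3 were added after seeing the data. The scripts were tested on simulated data. Values of a few genes are not reported here. Positions, exons and overlaps are those of GENCODE M21, used in place of M15, in which 22784 of the listed identifiers are found and 45 are not. Python 3.11.15 was used with pandas 2.3.3, scipy 1.17.1, matplotlib 3.10.9 and numpy 2.4.6, and R 4.3.3 with DESeq2 1.42.0, edgeR 4.0.16 and limma 3.58.1.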

Additional observations from a re-analysis of the deposited data

Results flagged for a closer look

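In 10 of the 70 groups of 4 values examined (35 genes in each group of samples), the highest or lowest sample lay far from the other 3 by Dixon's test, where chance gives about 3.5. The flagged value is a normalized count in each case. In cells expressing WT-ROR-γt, replicate 2 stood apart for Itga4 (13080, the others 5645 to 6177), Vcam1 (1166, the others 156 to 310), Cd226 (769, the others 280 to 346) and Apbb1ip (9549, the others 8243 to 8463). These 4 flags are in 1 library, the only WT sample of set 2. WT replicate 4, the only WT sample of set 3, stood apart for Itgae at 5519, with the others at 3395 to 3588. Among cells expressing K187R-ROR-γt, replicate 4 stood apart for S1pr1 at 22120, with the others at 25810 to 25950, and for Itgb5 at 968, with the others at 595 to 620. Replicate 3 stood apart for Icam2 at 1577, with the others at 1220 to 1260, and for Fermt3 at 12670, with the others at 10250 to 10560. Replicate 2 stood apart for Itga2 at 255, with the others at 185 to 192. What sets these samples apart was not tested.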

How the results depend on the processing

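Over 23 alternatives, 755 of 804 fold changes of single adhesion genes kept their direction and side of the threshold, 41 changed sign and 8 passed the threshold. Of the 35 genes, 23 changed sign under no alternative, Itgae, Itgb7 and Itgal among them. Genes called over all genes tested, 0 in limma, were 31 in DESeq2, 1 with the set in limma, 1 with it in edgeR, 144 with it in DESeq2 and 4 without the samples of set 3, and 0 to 4 when single samples were left out, 4 without WT replicate 4. Adhesion genes called, 0 in limma, were 4 with the set in DESeq2. Adhesion genes with an unadjusted p under 0.05, 3 in limma (4.39% of all genes tested), were 5 with no filter (4.36%), with quantile normalization (4.29%) and in DESeq2 (4.97%), 10 with the set in limma (8.21%) and in edgeR (8.2%), 12 with it in DESeq2 (6.77%) and 8 without the samples of set 3 (11.6%). With single samples left out they were 2 to 11, with 11 without WT replicate 2 (8.52%), 9 without WT replicate 4 (12.9%) or K187R replicate 4 (6.3%) and 5 without K187R replicate 1 (4.89%). Without K187R replicate 3 the unadjusted limma p of Itgal was 0.0608.

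The replicate numbers were not taken as pairs, since deviations of same-numbered samples correlated at 0.592, 0.663, -0.092 and 0.63 for numbers 1 to 4, and WT replicate 3 correlated best with number 1. With a replicate block in limma 0 genes were called and 17 adhesion genes had an unadjusted p under 0.05, against 12% of all genes. With a replicate block in DESeq2 174 genes were called (1.34%), among them 4 of 34 adhesion genes, and 18 had an unadjusted p under 0.05, against 10.4% of all genes. These 4 were Itgal (adjusted p = 0.00371), Itgb7 (0.0110), Itgae (0.0142) and Cd226 (0.0452).

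Log2 fold changes after a change of sign lay between -0.1338 and 0.1056, while the same genes had up to 0.17 (Itgb8) in the main limma fit. Under quantile normalization they were -0.0106 for Itga9, 0.0169 for Selplg and 0.0222 for Rap1a, and with TMM factors 0.0042 for Selplg. With the set in limma, edgeR and DESeq2 they were -0.0526, -0.0525 and -0.0533 for Itgb3, -0.0833, -0.087 and -0.0859 for Itgb8, and 0.0571, 0.0573 and 0.057 for Selplg, and with the replicate block in DESeq2 0.0002 for Selplg. Without set 2 they were -0.0849 for Itga5, -0.0035 for Itgb2, -0.0305 for Fermt3 and 0.1056 for Rap1a, and without set 3 0.0018 for Selplg and -0.0363 for Cd47. With single samples left out the range was -0.0598 to 0.0088 for Cd44, -0.0156 to 0.2555 for S1pr4, -0.1152 to 0.091 for Rap1a, -0.0342 to 0.0618 for Itgb2, -0.0211 to 0.0508 for Itga6, -0.1174 to 0.0919 for Selplg, -0.1338 to 0.2819 for Itga9, -0.083 to 0.5191 for Itgb8 and -0.049 to 0.0487 for Cd47. The cause was not tested. Depth limits Itga9 most, at 14.8 normalized counts in its lowest sample.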
